A study of Mus musculus with 14 samples.

Results

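DNase-seq of mouse liver was used to describe 463 regions of accessible chromatin that were found in every library of pituitary-intact females and in no library of hypophysectomized (hypox) mice. DNase I cuts DNA where nucleosomes are displaced, mostly at promoters and enhancers, and a peak is a stretch where released fragments pile up over the local background. Peaks of 14 libraries on the autosomes and X were merged where they shared at least 1 bp, which gave 48148 regions. A region was a member when a peak overlapped it in all 4 intact libraries and in none of the 10 hypox libraries. The members were 0.962% of all regions and 3.36% of the 13779 regions called in all 4 intact libraries. The opposite pattern, a call in all 10 hypox and no intact library, held for 35 regions, or 0.0727%. These counts follow from the rule that chose the members and carry no test. The rule asks for 10 absences and 4 calls in one direction and for 10 calls and 4 absences in the other, so the counts of the 2 directions are not matched.

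All mice were CD-1 (ICR) animals aged 7 weeks, and no strain or allele differed between the groups. The hypox groups comprised 2 pools of females without GH, 2 pools of males without GH, and 2 pools each of males killed 30, 90 or 240 min after 1 intraperitoneal injection of recombinant rat GH at 125 ng per g body weight. The intact group comprised 4 pools of females. Each pool joined released fragments of 3 livers, except hypox female pool 1 with 2 livers, so a pool is the replicate. Whether the hypox males without GH received vehicle is not given in the sources used here. Intact males were not analysed here, so regions of intact livers cannot be told apart from regions of intact female livers when the male hypox libraries are considered.

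Depth was 13801072 to 33700120 tags in hypox libraries and 13078268 to 21554388 in intact libraries, and the lists held 17691 to 28080 and 21583 to 35851 peaks. The titles carry a code whose meaning is not given in the sources used here: G92 in 10 libraries, G93 in intact pools 3 and 4, and G103 in both hypox male pools without GH. Intact pool 3 stood apart from the other libraries, with promoters making up 18.7% of its regions against 29.4 to 47.2% in the other 13. Without intact pool 3 the rule found 714 regions, and without intact pool 2 it found 1133. With every list held to the length of the shortest, 302 regions met the rule, and 123 of them were among the 463. Intact pool 4 had the longest list of the 14. Of 19 hepatocyte identity genes with a linked region, 12 had a region called in all 14 libraries. The same held for 13 of 17 fatty acid genes, 7 of 10 ubiquitous genes, 5 of 10 endothelial markers and 0 of 6 stellate cell markers. Among lists not given so far, it held for 12 of 26 female-biased and 9 of 13 glucocorticoid-responsive genes. For Kupffer, cholangiocyte and lymphocyte markers the counts were 1 of 2, 1 of 2 and 0 of 3. The share over all genes was not computed, so these counts do not compare cell types or libraries. Absence of a call means that no peak passed the authors' threshold at that depth, and in bulk liver fewer cells of a type and less accessibility per cell cannot be told apart.

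The pituitary hormone GH acts on hepatocytes through its receptor, the kinase JAK2 and the transcription factor STAT5, and its secretion is pulsatile in male and near continuous in female rodents. Removal of the pituitary takes away GH together with the hormones that drive the thyroid, the adrenal cortex and the gonads. HNF6 (Onecut1) is a liver-enriched transcription factor whose DNA sites resemble those of CUX2, a repressor found in female mouse liver. STAT5 binds a palindrome of TTC and GAA with 3 bases between, and HNF6 binds sites around ATCAAT.

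Sequences of 200 bp centred on the median intact summit are given for 8 members, as the plus strand of mm9 in lower case with matches in capitals. Cyp3a16, Thy1 and Reln, named by the nearest gene, hold ATCAAT, which reads ATTGAT where the match is on the minus strand. This hexamer was the sequence whose share set the members apart most from the other intact regions. Srgap3 holds ATCAAT and ATCGAT, the related HNF6/CUX form. Cga and Thbs1 were the members of highest fold that hold the STAT5 palindrome TTCNNNGAA, and the member on chromosome 8 whose nearest gene is Gm5356, 328.8 kb away, holds it together with ATCGAT. The member in Cux2 holds none of the 3, as was the case for most members.
Cyp3a16, chr5:146215382-146215581: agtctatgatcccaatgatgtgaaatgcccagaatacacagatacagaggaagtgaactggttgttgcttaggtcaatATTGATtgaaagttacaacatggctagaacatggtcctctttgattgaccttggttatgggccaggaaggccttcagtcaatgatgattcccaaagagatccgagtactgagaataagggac
Thy1, chr9:43752969-43753168: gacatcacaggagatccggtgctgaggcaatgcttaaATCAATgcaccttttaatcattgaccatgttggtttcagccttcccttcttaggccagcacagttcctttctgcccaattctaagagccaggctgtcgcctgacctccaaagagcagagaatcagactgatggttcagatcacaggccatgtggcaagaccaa
Reln, chr5:21514890-21515089: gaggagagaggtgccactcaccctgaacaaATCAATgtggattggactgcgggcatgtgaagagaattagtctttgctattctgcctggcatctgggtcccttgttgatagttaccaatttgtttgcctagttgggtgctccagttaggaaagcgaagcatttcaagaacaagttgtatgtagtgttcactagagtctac
Srgap3, chr6:112887891-112888090: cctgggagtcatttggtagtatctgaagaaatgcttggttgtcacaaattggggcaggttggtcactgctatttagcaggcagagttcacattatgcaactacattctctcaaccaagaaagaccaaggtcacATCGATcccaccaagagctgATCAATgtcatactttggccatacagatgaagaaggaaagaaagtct
Cga, chr4:34848646-34848845: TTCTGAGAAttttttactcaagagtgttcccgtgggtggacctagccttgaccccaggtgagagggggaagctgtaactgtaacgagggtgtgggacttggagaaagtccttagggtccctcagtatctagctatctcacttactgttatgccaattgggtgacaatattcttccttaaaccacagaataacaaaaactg
Thbs1, chr2:117975692-117975891: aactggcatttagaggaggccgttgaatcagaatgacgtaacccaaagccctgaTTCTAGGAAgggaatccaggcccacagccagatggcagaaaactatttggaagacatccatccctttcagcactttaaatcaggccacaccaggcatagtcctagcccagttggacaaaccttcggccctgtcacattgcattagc
Gm5356, chr8:92040133-92040332: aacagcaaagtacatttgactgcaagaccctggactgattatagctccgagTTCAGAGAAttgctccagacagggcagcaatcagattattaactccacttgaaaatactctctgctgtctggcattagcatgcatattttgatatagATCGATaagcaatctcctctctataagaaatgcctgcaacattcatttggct
Cux2, chr5:122449044-122449243: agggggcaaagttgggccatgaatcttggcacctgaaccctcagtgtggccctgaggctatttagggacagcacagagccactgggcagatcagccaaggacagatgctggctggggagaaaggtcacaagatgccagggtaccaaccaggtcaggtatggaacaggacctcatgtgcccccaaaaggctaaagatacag

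Members lay mostly away from promoters. Of the 463, 19 (4.10%) had their summit within 1000 bp of a transcription start, 19 (4.10%) in an exon, 218 (47.1%) in an intron and 207 (44.7%) between genes. Promoters made up 3.87% of 568 regions called in all 4 intact libraries, in no hypox library without GH and in at least 1 of the 6 GH libraries, called GH-reached regions below. They made up 25.8% of the 12748 other regions called in all 4 intact libraries. The exact 95% interval of the promoter share was 2.49 to 6.33% in members and 25.03 to 26.6% in those other regions, and such intervals cover counting error only. The median distance to a start was 25.8 kb for members, 22.7 kb for GH-reached regions and 10.9 kb for the other regions, and 33.9% of members lay more than 50 kb away. With a promoter taken as 500 or 2500 bp on either side of a start, the share in members was 2.38 and 10.8%.

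The members were spread over every chromosome analysed. Their share of the regions of a chromosome was highest on chromosome 13, with 33 of 2249 (1.47%), and lowest on X, with 5 of 979 (0.511%). Neighbouring members within 100 kb of each other formed 32 groups that held 69 members. The largest group had 4 members within 37.8 kb on chromosome 10, in and near Ust, which encodes a uronyl sulfotransferase that modifies chondroitin and dermatan sulfate. The median distance to the nearest region called in all 14 libraries was 87.2 kb for members, against 43.6 kb for GH-reached regions.

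The members were peaks of moderate height, not of the strongest class. The authors' fold, the tags at the summit over the local background, had a median of 5.90 in intact pool 1, 5.03 in pool 2, 5.86 in pool 3 and 6.85 in pool 4. In the 12748 other regions the same pools had medians of 8.37, 7.14, 7.14 and 8.61. Within each library's list, the members' median stood at percentile 41.3, 29.8, 46.9 and 60.4 of all folds. The mean over the pools ran from 3.21 to 11.9 with a median of 6.15, which was also 6.15 in GH-reached regions and was 7.89 in the other regions. Pool 4, the most deeply sequenced intact library, held the highest of the 4 folds in 229 members, pool 3 in 118, pool 1 in 84 and pool 2 in 32. The coefficient of variation over the pools had a median of 19.5% in members and 18.3% in the other regions. The same 4 libraries chose these regions, so the folds describe the calls and test nothing.

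**Figure D1:**
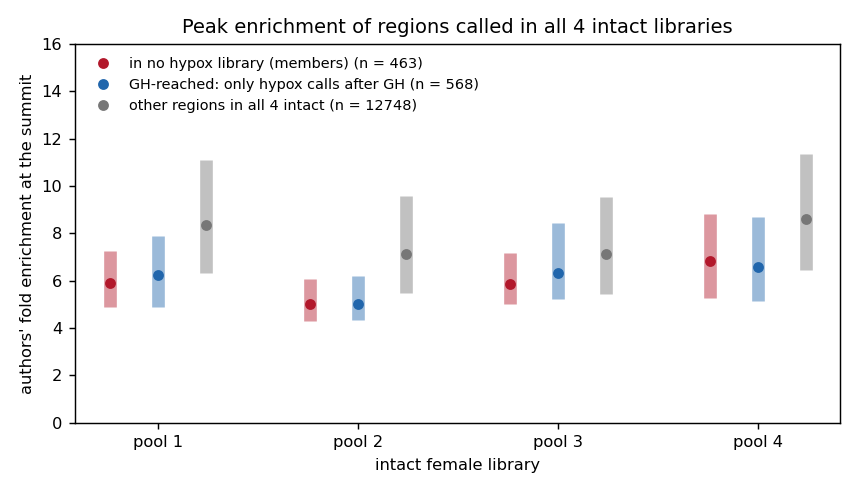
Authors' fold enrichment at the summit (vertical axis) in each intact female library (horizontal axis) for members, GH-reached regions and other regions called in all 4 intact libraries; points are medians over regions and bars span the quartiles. Members had medians of 5.03 to 6.85, below the 7.14 to 8.61 of the other regions in each pool.

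Members of highest mean fold lay at genes of varied function, several of them known mainly from other tissues. The member in an intron of Txndc8, a thioredoxin-like protein described in the testis, was called in 0 of 10 hypox libraries and had folds of 10.7, 6.92, 12 and 17.98 in intact pools 1, 2, 3 and 4 (chr4:58016249-58016835, mm9). Its intact folds were uneven: pool 4 was highest and pool 2 lowest, and the mean was 11.9 ± 4.59 (SD, n = 4). The member in an intron of Cga, the alpha subunit shared by pituitary glycoprotein hormones, had folds of 13.01, 12.6, 8.99 and 11.3 in the same pools (chr4:34848348-34849117, mean 11.5 ± 1.81). Here pools 1 and 2 were the high ones and pool 3 was low.

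The member 227.0 kb from Tle4, a corepressor of the Groucho family, had intact folds of 8.97, 8.57, 13.7 and 13.3 (chr19:14301029-14301653), high in the pair of pools coded G93. The member 98.4 kb upstream of Thy1, a surface protein of T cells and neurons, had 12.8, 8.33, 11.1 and 12.1 (chr9:43752809-43753380). The member in Adam19, a membrane-bound metalloprotease, had 10, 8.55, 12.4 and 11.8. All 3 were clear calls in every intact pool, and pool 2 was the lowest in each. The other 7 of the 12 strongest members lay nearest to Gm10290, Thbs1, Rsph1, Birc3, E130309F12Rik, Gm11077 and Fam46c (Tent5c in RefSeq), with mean folds of 10.2 to 11.1. Thbs1 encodes the matrix protein thrombospondin 1, Rsph1 a radial spoke protein of cilia, Birc3 an inhibitor of apoptosis and Fam46c a poly(A) polymerase. Of the 12, 3 were overlapped in the authors' combined hypox lists: Cga at 30 min with a fold of 4.55, Thbs1 at 30 min with 4.78, and Birc3 in hypox females with 4.23 and in hypox males without GH with 5.10. Distance alone ties a region to its nearest gene here, and no expression was measured.

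**Figure D2:**
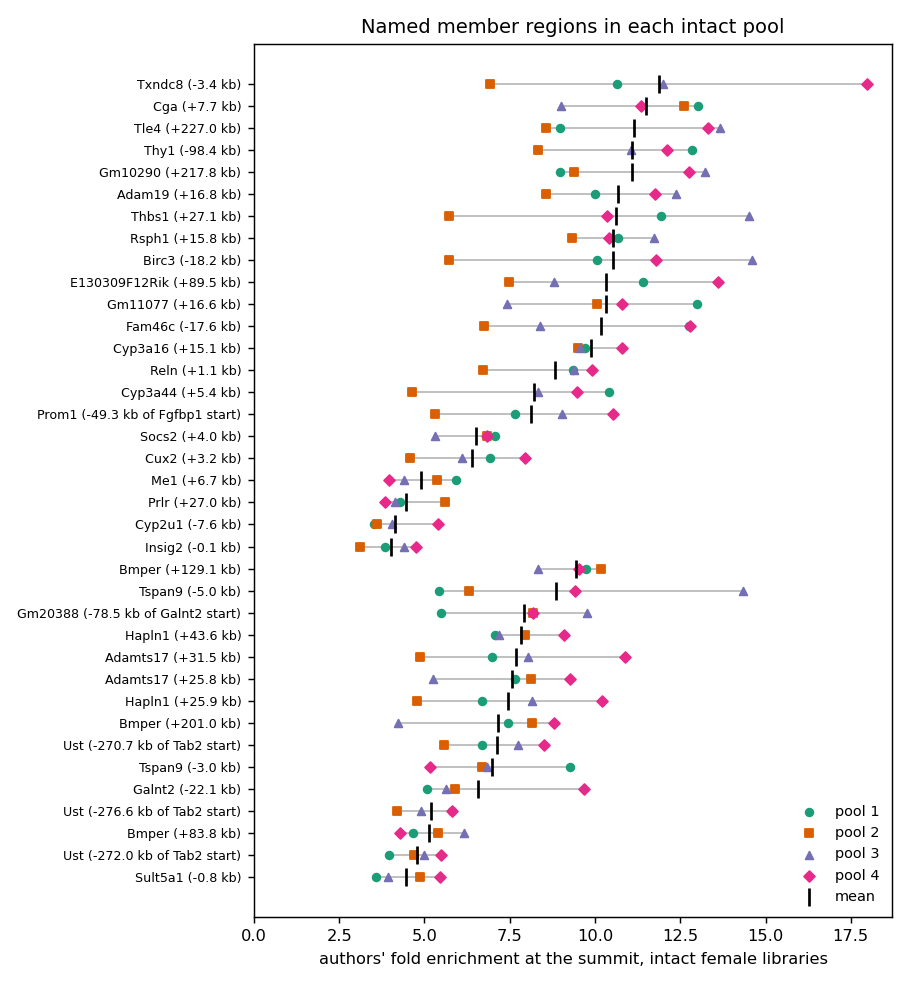
Authors' fold enrichment at the summit (horizontal axis) of named members in each of the 4 intact female pools; rows are members with the distance to the nearest start, and black ticks are means over the pools. The upper 12 rows are the members of highest mean fold, from 10.2 to 11.9, the next 10 are members at genes of the lists, and the rest lie at genes with the most linked members.

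Of the 19 gene lists, that of female-biased liver genes had the most genes with a linked member. Genes were tied to the regions that lay inside them or up to 10 kb before their start. Of 13857 protein-coding genes with any linked region, 268 (1.93%) had a linked member. Of 26 female-biased liver genes with a linked region, 5 (19.2%) had a linked member: Cux2, Cyp3a44, Cyp3a16, Cyp17a1 and Prom1. The list was put together with earlier results of these data known, so the count is a description. With the nearest start within 50 kb in place of the link, the count was 7 of 26, with Cyp3a41a, A1bg and Sult3a1 in and Prom1 out. That link tied 293 genes to members, and the share over all genes was not computed for it. Of 16 male-biased genes with a linked region, 1 (6.25%) had a linked member, Cyp2u1, beside the 1.93% of all genes. With 1 gene, this list shows neither an excess nor a lack.

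In the Cyp3a cluster, which encodes steroid- and drug-oxidizing cytochromes P450, 5 of 14 regions were members and 12 (85.7%) were called in no hypox library. Over the genome, 19.5% of all regions and 11.8% of the regions called in at least 2 intact libraries were called in no hypox library. The intronic member of Cyp3a16 was called in no hypox library and had folds of 9.70, 9.51, 9.57 and 10.8 in the 4 intact pools (chr5:146215267-146215857, mean 9.89 ± 0.598). The intronic member of Cyp3a44 had 10.4, 4.64, 8.34 and 9.47 (chr5:146611768-146612241, mean 8.21 ± 2.53), with pool 2 the low one. A member 17.8 kb upstream of Cyp3a41a had 6.10, 4.28, 6.67 and 5.75, and one 50.5 kb upstream of Cyp3a41b had 5.93, 5.45, 5.62 and 4.41. A region 38.5 kb downstream of the Cyp3a16 start lay outside the pattern, with calls in 7 of 10 hypox libraries, all 6 GH libraries among them, and in all 4 intact libraries. The genes of this cluster are near-identical copies. Whether tags could be placed uniquely among these copies was not checked here, and the members at Cyp3a16 and Cyp3a41b share sequence with each other.

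At the Sult3a genes, which encode sulfotransferases, 3 of 14 regions were members and 9 (64.3%) were called in no hypox library. The member 5.6 kb upstream of Gm4794 (Sult3a2 in RefSeq) had intact folds of 9.94, 7.51, 12.8 and 10.4 (chr10:33507279-33507770, mean 10.2 ± 2.17). The member 13.04 kb upstream of Sult3a1 had 9.65, 6.51, 10 and 9.76, and the one near the pseudogene Gm10327 had 6.02, 7.57, 7.23 and 6.04. An intronic region of Sult3a1 itself was called in 2 hypox libraries without GH, female pool 2 with a fold of 6.34 and male pool 1 with 3.84, and in 3 intact pools. Another 2 members lay together downstream of the A1bg start, where 3 of 4 regions were called in no hypox library. Their folds were low, at 4.55, 4.84, 3.12 and 3.94 and at 4.25, 3.86, 3.88 and 3.47 in the 4 intact pools. A1bg encodes a plasma glycoprotein.

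Cux2 had 1 member, 51.0 kb into the gene, with intact folds of 6.92, 4.58, 6.11 and 7.93 (chr5:122448792-122449301, mean 6.39 ± 1.42). Within 5 kb of it, at 49.5 and 46.4 kb, lay 2 further regions called in no hypox library, the first in 3 and the second in 2 intact pools. The gene was not devoid of peaks in hypox liver: a region 23.6 kb into it was called in all 14 libraries, with folds of 4.44 to 14.8 in hypox and 9.57 to 12.6 in intact libraries. Cyp17a1, a steroid hydroxylase, had a member 2.9 kb upstream with intact folds of 4.64, 5.10, 4.76 and 4.48 (mean 4.75 ± 0.266). A region 4.51 kb inside Cyp17a1 was likewise called in all 14 libraries. Prom1, a membrane glycoprotein, had an intronic member with intact folds of 7.65, 5.32, 9.04 and 10.5 (mean 8.14 ± 2.22), and the authors' combined list of the hypox females also held a peak there with a fold of 3.99.

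**Figure D3:**
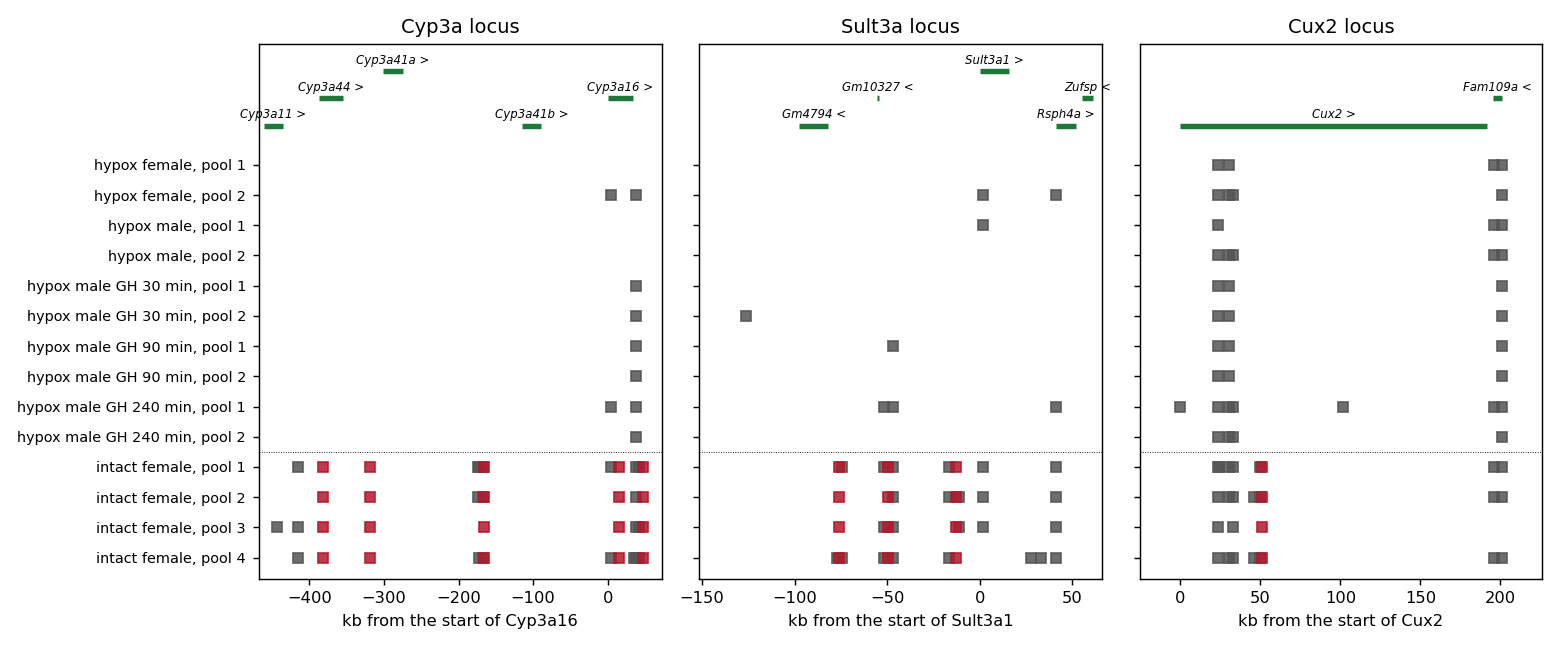
Calls in each library (rows, hypox libraries above the dotted line and intact females below it) along the Cyp3a, Sult3a and Cux2 loci (horizontal axis in kb from the start of the named gene); squares are regions called in that library, red for members, and green bars are genes. Hypox rows held calls in 2 of 14 Cyp3a regions, against all 14 across the intact rows, and the Cux2 regions at 23.6 and 30.6 kb had calls in hypox and intact rows.

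Among 12 direct GH and STAT5 target genes with a linked region, 1 (8.33%) had a linked member, Socs2, beside 1.93% of all genes. A list this short shows neither an excess nor a lack. Socs2 encodes a suppressor of cytokine signalling that limits GH receptor signalling. Its intronic member had no call after GH at any time and intact folds of 7.07, 6.85, 5.31 and 6.84 (chr10:94871130-94871760, mean 6.52 ± 0.809). Pools 1, 2 and 4 were close together and pool 3 was lower. Other regions of the gene behaved differently: one 0.8 kb upstream was called in all 6 GH libraries, with folds of 5.09 to 8.03, in 0 of 4 hypox libraries without GH and in 2 intact pools. A region 9.2 kb upstream was called in all 14 libraries. Prlr, the prolactin receptor gene, had an intronic member with intact folds of 4.29, 5.61, 4.15 and 3.84 (mean 4.47 ± 0.781) among 21 regions, 7 of them called in all 14 libraries.

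The other lists held 1 gene or none with a linked member, beside 1.93% of all genes. Among those with 1 were the thyroid-responsive (1 of 10, 10%), cholesterol and bile acid (1 of 14, 7.14%) and growth factor (1 of 16, 6.25%) lists. In lists of this size, 1 gene or none shows neither an excess nor a lack. Me1, the malic enzyme gene of the thyroid-responsive list, had an intronic member with intact folds of 5.92, 5.37, 4.39 and 3.97 (mean 4.91 ± 0.889), and the combined list of hypox males without GH held a peak there with a fold of 3.71. Insig2, a regulator of sterol synthesis, had a member at its promoter with folds of 3.85, 3.10, 4.40 and 4.74 (mean 4.02 ± 0.715). Cyp2u1, a cytochrome P450, had a member 7.6 kb upstream with 3.52, 3.62, 4.04 and 5.41, and the combined lists of hypox males without GH and of 240 min held peaks there with folds of 2.56 and 2.88. None of the glucocorticoid-responsive (13), hepatocyte identity (19), fatty acid (17), xenobiotic and nuclear receptor (12), pericentral (9), periportal (10), circadian (15) and ubiquitous (10) genes with a linked region had a linked member. By the nearest start within 50 kb, 2 of 19 hepatocyte identity genes (Apob and Cebpa) had a member. So had 2 of 14 cholesterol and bile acid genes (Sqle and Insig2) and 2 of 15 genes of the growth factor list (Prlr and Esr1). The share over all genes was not computed for this link.

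Markers of other liver cells were checked as well. Among markers with a linked region, 0 of 10 endothelial, 0 of 2 Kupffer, 0 of 2 cholangiocyte and 0 of 3 lymphocyte genes had a linked member, beside 1.93% of all genes, so lists this short say nothing about cell types. Of 6 stellate cell markers, Reln had 1, with intact folds of 9.35, 6.73, 9.39 and 9.90 (mean 8.84 ± 1.43). The combined lists of hypox females, hypox males without GH and the 30 min males held a peak at the Reln member with folds of 3.99, 2.94 and 4.23. The part of cell composition in the members was not tested.

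Of the 268 genes with a linked member, 255 had 1, 10 had 2 and 3 had 3. The 3 were Bmper, an extracellular regulator of BMP signalling, Ust, and Gm20388. Bmper had 15 linked regions, 3 of them called in all 14 libraries, and its members had intact mean folds of 5.13 ± 0.827, 9.45 ± 0.787 and 7.16 ± 2.04 at 83.8, 129.1 and 201.0 kb from an annotated start of the gene. The members in Ust had 7.13 ± 1.27, 4.79 ± 0.635 and 5.18 ± 0.787. Gm20388 is a long annotation that overlaps Galnt2 and Sult5a1, and 2 of its 3 members are also linked to those genes, 1 to each. Pairs of members lay at Adamts17, a secreted metalloprotease, at Hapln1, a link protein of hyaluronan matrix, and at Tspan9, a tetraspanin. Genes with a member outside promoters had these promoter calls: 36 of 249 (14.5%) had a promoter region called in all 14 libraries, against 880 of 3803 genes (23.1%) with any region outside promoters called in all 4 intact libraries.

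The HNF6-type hexamer ATCAAT was frequent in members. Within the 200 bp centred on the summit, either strand, it was found in 119 of 463 members (25.7%, exact 95% interval 21.8 to 29.9%). The share was 28.5% (24.8 to 32.4%) in GH-reached regions, 11.7% (11.2 to 12.3%) in the other regions called in all 4 intact libraries and 10.6% in all 48148 regions. Outside promoters it was 25.5% in members and 13.6% in the other intact regions, or 14.2% with these weighted to the GC content of members. Among all 2080 hexamers, each counted with its reverse complement outside promoters, ATCAAT had the largest excess over the other intact regions both in members and in GH-reached regions. The related ATCGAT was found in 3.46% of members, 4.75% of GH-reached and 2.00% of other regions. In sequences such as those of Cyp3a16 and Reln above, the capitals mark this hexamer.

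The STAT5 palindrome TTCNNNGAA had a share in members near that of the other intact regions. It was found in 30 of 463 (6.48%, 4.41 to 9.12%), against 19.2% (16.03 to 22.7%) of GH-reached regions, 7.72% of the other intact regions and 8.74% of all regions. Spacings of 2 or 4 bases, which are not STAT5 sites, were found in 5.62 and 4.75% of members, 7.39 and 6.34% of GH-reached regions, and 5.53 and 5.04% of the other intact regions. STAT5 and ATCAAT occurred together in 9 members (1.94%), 5.28% of GH-reached regions, 1.01% of the other intact regions and 1.07% of all regions. Neither STAT5, ATCAAT nor ATCGAT was found in 313 members (67.6%). The same held for 54.8% of GH-reached regions, 80.0% of the other intact regions and 80.6% of all regions. Set against hypox females alone, the 1978 regions absent from them held the STAT5 palindrome in 10.2%, against 7.80% of the other intact regions. Without 30 min pool 1 its shares were 8.41% in members and 8.14% in the other intact regions. GH-reached regions were chosen by a call after GH and members by none, so their shares describe that choice. A match is a description of the letters and not of a bound site.

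Along the number of hypox libraries that called a region, these shares moved in different ways. Among regions called in all 4 intact libraries, ATCAAT was found in 25.7% of those in 0 hypox libraries, 21.2% in 1, 16.4% in 4, 14.9% in 7 and 10.2% in all 10. The STAT5 palindrome stood at 6.48% in 0 hypox libraries, 12.5% in 6, 12.8% in 7 and 7.54% in all 10. Promoters stood at 4.10% in 0, 13.6% in 9 and 36.8% in all 10. Intervals of neighbouring counts overlapped throughout for ATCAAT.

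**Figure D4:**
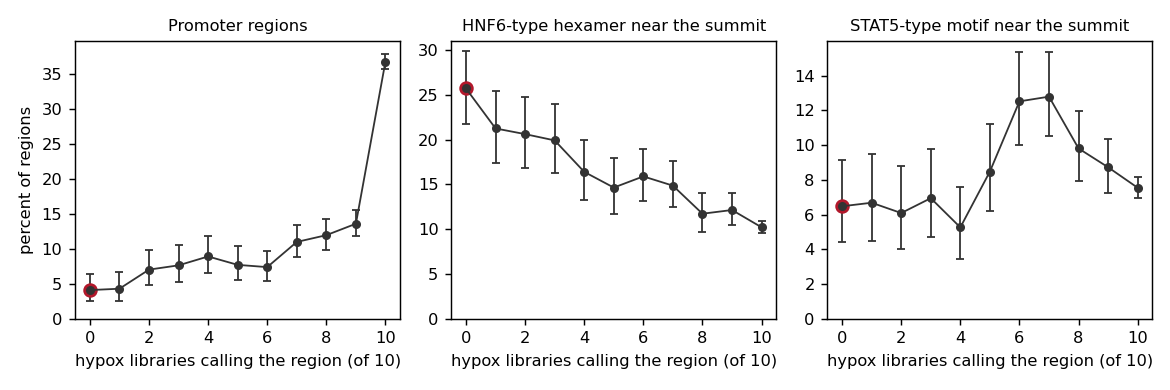
Percent of regions called in all 4 intact libraries (vertical axis) that lie at promoters, hold the HNF6-type hexamer or hold the STAT5-type motif within 100 bp of the summit, by the number of hypox libraries calling them (horizontal axis); bars are exact 95% intervals and the red point is the members. The HNF6-type share was 25.7% at 0 and 10.2% at 10, and the STAT5-type share was highest at 7, with 12.8%.

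Matches of ATCAAT in members were most frequent just beside the summit, in 1 bin. Outside promoters, members held 11.3 matches per 100 regions in the 50 bp to the right of the summit and 5.63 in the 50 bp to its left, in chromosome coordinates, against 2.03 and 2.48 at 100 to 150 bp on the same sides. Further out, members held 4.73 at 200 to 250 bp to the left and 4.28 at 150 to 200 bp to the right. The bins hold 8 to 50 matches each in members. GH-reached regions held 10.3 and 10.99 matches in the same 2 central bins and the other intact regions 4.61 and 4.43. The hexamer CAGATG, of the E-box class bound by basic helix-loop-helix proteins, ranked 3 of 2080 in members, with 22.7% outside promoters against 15.2% in the other intact regions. It ranked 1924 in GH-reached regions, with 13.004%. It was picked from all hexamers after its share was seen. It had 5.18 to 7.43 matches per 100 members in each 50 bp bin within 100 bp of the summit. Further out it had 3.15 to 5.63, so the ranges overlapped. Within 100 bp of the summit the other intact regions had 4.11 to 4.36 and GH-reached regions 2.75 to 4.21. Members held the run AAAAAA in 8.11%, against 15.7% of the other intact regions, the lowest difference of all hexamers.

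**Figure D5:**
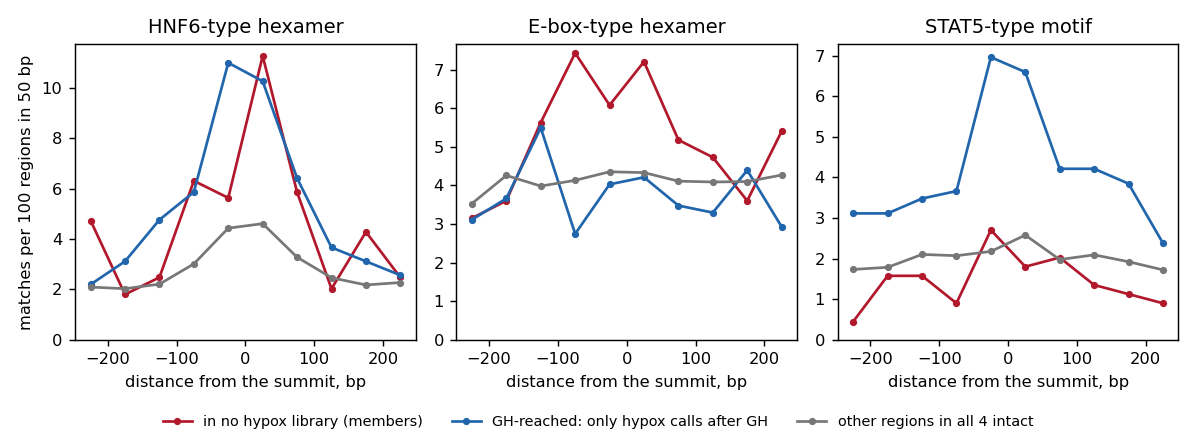
Matches per 100 regions in bins of 50 bp (vertical axis) by distance from the median intact summit (horizontal axis), outside promoters, for members, GH-reached regions and the other regions called in all 4 intact libraries. The HNF6-type hexamer reached 11.3 in members and 10.99 in GH-reached regions near the summit, against 4.61 in the other regions, and the STAT5-type motif was highest in GH-reached regions among the 3 classes.

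The other motifs fixed for the search are given here outside promoters, and none differed from the other intact regions by as many percentage points as ATCAAT. The glucocorticoid receptor palindrome ACANNNTGT was found in 10.4% of members, 8.97% of GH-reached regions and 8.18% of the other intact regions. The E-box CACGTG was found in 3.38% of members, the CTCF core in 1.35% and the ETS core CCGGAAG in 0.450%, against 5.50, 2.73 and 1.18% of the other intact regions. The C/EBP site TTGCNNAA, of a hepatocyte factor, was found in 23.4% of members and 22.5% of the other intact regions. Sites of HNF1, HNF4A and FOXA were found in 1.35, 3.38 and 7.21% of members, against 3.03, 3.00 and 8.50% of the other intact regions. AGGTCA and its direct repeat were found in 29.3 and 0.225% of members, against 30.4 and 0.137%. The AP-1, NF-Y, GATA and TEAD sequences were found in 8.56, 33.8, 14.4 and 9.68% of members, against 8.79, 31.1, 14.2 and 11.1%. Of the members, 14 fell into 5 groups that share stretches of sequence, such as the pair at Cyp3a16 and Cyp3a41b.

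Absence from the hypox libraries was graded by the authors' combined lists, which pool the reads of each group and so reach lower peaks. These reads are the same as those of the libraries, so the lists are no independent evidence. A peak overlapped 21 members (4.54%) in the combined list of hypox females, 58 (12.5%) in that of hypox males without GH, 34 (7.34%) at 30 min, 24 (5.18%) at 90 min and 46 (9.94%) at 240 min after GH. All 463 were overlapped in the combined list of intact females. The combined hypox lists rest on 28472456 to 51119876 tags and that of intact females on 68187384. Over the members with a peak in a given hypox list, the median folds were 3.25 to 3.94. Over all 463 members in the intact list the median was 7.24, so the sets differ. By the rule, no member had a call in a single hypox library. In all, 330 members (71.3%) were in none of the 5 combined hypox lists, 98 in 1, 24 in 2, 8 in 3, 2 in 4 and 1 in 5. Overlap with the combined lists was not computed for GH-reached, other intact or all regions. These counts therefore show nothing particular to members. The 330 held ATCAAT in 27.9% (23.1 to 33.1%), against 20.3% (13.8 to 28.1%) in the other 133.

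More regions missed the rule by 1 call than met it. Called in no hypox library but in 3 of the 4 intact libraries were 1042 regions. Called in all 4 intact libraries and exactly 1 hypox library were 419, and 141 of them (33.7%) owed their exclusion to 240 min pool 1, the longest of the hypox lists. Hypox male pool 1 accounted for 76, 30 min pool 1 for 72 and hypox female pool 1 for 4. The weakest members by their lowest intact −log10 q were an intergenic region near Gm7665 at 2.28, an intronic region of Kcnip4 at 2.28 and one near Sox9 at 2.24. Just outside stood regions near Ets1 (1.60), Asb4 (2.01) and Tnrc6c (2.15), each called in 240 min pool 1 with folds of 4.84, 4.44 and 3.88.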

How the data were processed

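Livers were profiled by DNase-seq in 14 pooled libraries, with tags of 40 bp per the file headers. The submitters' processing notes name Bowtie2 and the build mm9. The authors called peaks per library and per group with MACS2 2.1.0.20150731, with no control and a q cutoff of 0.05, per the file headers. Tags were shifted by -100 bp and extended by 200 bp, and duplicates were retained. The deposited lists give each peak a pileup signal, a fold enrichment ratio over local background, a −log10 p and a −log10 q. These exist only where a peak was called. Without read counts per region, calls were described as present or absent and no count model was used.

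Peaks on autosomes and X were merged at 1 bp overlap with Python 3.11.15 and pandas 2.3.3 (numpy 2.4.6). Summits were placed on GENCODE vM1, a promoter being within 1000 bp of a start. Coordinates are 1-based in mm9. Motifs were searched in 200 bp around the median intact summit on both strands of the mm9 assembly. Exact binomial intervals (95%, scipy 1.17.1) cover counting error only. Genes were tied to regions inside them or up to 10 kb before their start. RefSeq of a later build was used for names alone. The repeat share was not computed, since the assembly used was not masked. The search and merging steps were tested on simulated data.

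The members, the 19 gene lists and the 19 motifs were chosen with earlier results of these data known. Named members were the 12 with the highest mean fold, up to 4 linked members per gene list, those of the 6 genes with the most members (ties by the sum of mean folds, which took 3 of the 10 genes with 2), the 8 and 6 of highest fold outside promoters with the STAT5 and ATCGAT sequences, and the 3 on either side of the edge of the rule. Other names are given where a count was small or a locus was described. Alternatives were stricter peak thresholds, lists of equal length, other overlap rules, subsets of libraries, other windows and promoter definitions, and leaving out each library. GC weighting, regions outside promoters and all hexamers were added after seeing the data.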

Additional observations from a re-analysis of the deposited data

Results flagged for a closer look

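For 55 quantities, the values in the 4 intact pools were checked for 1 pool far from the rest, by the gap to its nearest neighbour over the whole range. Chance flags about 1 in 20 such groups, and 2 of the 55 passed. In the Socs2 intron, pool 3 was lowest, at 5.31, against 6.84 to 7.07 in the others, a ratio of gap to range of 0.869. In the Cyp3a16 intron, pool 4 was highest, at 10.8, against 9.51 to 9.70 in the others, a ratio of 0.853.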

How the results depend on the processing

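The count of members depends on the lists. Leaving out each library in turn gave 467 to 1133 members, with 1133 without intact pool 2 and 714 without intact pool 3. Linked genes numbered 270 to 632, with 632 without intact pool 2 and 428 without intact pool 3. Promoters made up 3.52 to 5.60%, intergenic regions 41.3 to 47.5%, ATCAAT 21.6 to 26.4% (21.6% without intact pool 3, against 9.39% in the other intact regions there), STAT5 5.60 to 8.41%, the median fold 5.66 to 6.19 and female-biased genes 5 to 7.

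Lists cut to equal length gave 302 members, 123 of them shared with the 463, with 161 linked genes, 3 of them female-biased, ATCAAT in 21.5% and a median fold of 7.71. Peaks with −log10 p of at least 10 gave 318 members, 122 shared, and a median fold of 7.52. The libraries coded G92 alone gave 1016 members, promoters 6.59%, ATCAAT 18.01% (9.31% in the other intact regions there), a median fold of 5.21 and 600 genes. Set against hypox females alone, 1978 regions were absent, with promoters 6.52%, STAT5 10.2% (7.80% in the other intact regions there), ATCAAT 22.2% and 1080 genes. Against hypox males alone there were 521 members and 8 female-biased genes. Windows of 100 and 400 bp gave STAT5 in 4.10 and 12.1% and ATCAAT in 14.9 and 33.0% of members, against 7.52 and 18.7% for ATCAAT in the other intact regions. Promoters of 500 and 2500 bp gave 2.38 and 10.8%. In each of these settings the share of ATCAAT was higher, and that of promoters lower, in members than in the other intact regions where both were computed. The other planned settings moved no share beyond its counting interval and no median fold beyond the replicate spread. Leaving out a library, or using some libraries alone, can only add regions, so all 463 stayed members in those settings. Similar summaries there are thus partly built in. Counts were held only to a fixed ratio of the main count, which is wider than counting error. Members numbered 330 when also absent from the combined hypox lists and 604 without 240 min pool 1. With at least 50% of the region covered there were 459 members, of which 293 were among the 463, so similar summaries there describe partly different regions. Of the 50 named members, 28 remained with −log10 p of at least 10, 29 with equal lists and 35 with at least 50% of the region covered. No paired analysis was possible because the labels give no pairing of pools across groups and these results come from no test.

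Depth and list length limit what an absent call shows. Sex and pituitary state are partly joined, since 8 of 10 hypox libraries are male and all intact ones female. Intact pools carry codes G92 and G93 and hypox males without GH G103.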

Other observations

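Members near further genes of liver biology were seen outside the named set and are given as values, chosen after their values were seen. A member 26.0 kb from the start of Apob, the lipoprotein gene, had intact folds of 10.4, 9.22, 7.50 and 9.09. One 8.7 kb from Cebpa, a hepatocyte transcription factor gene, had 3.299, 3.39, 4.87 and 3.25, and 2 combined hypox lists held a peak there. One 36.1 kb upstream of Sqle, an enzyme of cholesterol synthesis, had 3.68, 5.56, 7.05 and 7.77. One 24.7 kb upstream of Esr1, the estrogen receptor gene, had 7.25, 5.80, 6.67 and 9.80, and it shared sequence with 4 other members.

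The member in most combined hypox lists, all 5, lay 53.9 kb upstream of Errfi1, an inhibitor of EGF receptor signalling. Its combined folds were 3.2 in hypox females, 2.47 in hypox males, 4.25, 3.57 and 3.03 at 30, 90 and 240 min after GH, and 3.95 in intact females, so the hypox and intact values overlapped there.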
